A study of Mus musculus with 2 samples.

Results

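The 10 genes described here encode RNA-binding proteins, most of them components of cytoplasmic RNA granules, that are expressed in the lens: Caprin1, Caprin2, Tdrd7, Celf1, Celf2, Rbm24, Stau1, Stau2, G3bp1 and Elavl1. They were chosen by symbol, and every probe set whose platform annotation gives only that gene symbol was taken, which gave 40 of the 45101 probe sets on the array. RNA was pooled from lenses of wild-type animals of the strain C57BL/6, taken at postnatal day 60 (P60, the young adult) and postnatal day 7 (P7, when the lens grows fast), and each pool was hybridised to 1 mouse Affymetrix array. The animals carried no engineered allele and no treatment is stated. The number of lenses in a pool is not given in the sources used here. With 1 array per age there is no replicate and no test, so all differences are described by size.

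Lens fibre cells lose their nuclei and organelles as they mature and then live on mRNA and protein made earlier, so the storage, splicing, stability and translation of mRNA matter to them for a long time. RNA granules are assemblies of mRNA and protein without a membrane, in which transcripts are held silent, transported, translated or degraded. Loss of TDRD7 in humans and mice leads to cataract, and CELF1, RBM24 and CAPRIN2 have also been tied to lens or eye development in animal models.

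Across the 10 genes the largest difference was that of Caprin2, whose signal at P60 was 13.5-fold below that at P7. Celf2 and Stau1 were at least 2-fold higher at P60 on their brightest probe sets, by 3.04-fold and 3.29-fold. The 4 measured probe sets of Celf2 ran from 1.94-fold to 3.04-fold higher, and the 3 of Stau1 from 1.16-fold to 3.29-fold. The other 7 genes stayed within 2-fold on their brightest probe sets. For 5 of these 7, Tdrd7, Rbm24, Celf1, Elavl1 and Stau2, at least 1 other probe set passed 2-fold, higher in Stau2 and lower in the others. Genes with more probe sets have more chances of this, and its share over all genes was not computed. Values under a floor of 103.9 intensity units, the median of all values on both arrays, were set to the floor, and the log2 ratio of P60 over P7 was then computed. A probe set counted as measured when it exceeded that floor on at least 1 array. By this rule 34 of the 40 probe sets were measured, 33 on both arrays and 1 on the P7 array only, and 6 lay under the floor on both arrays.

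**Figure D1:**
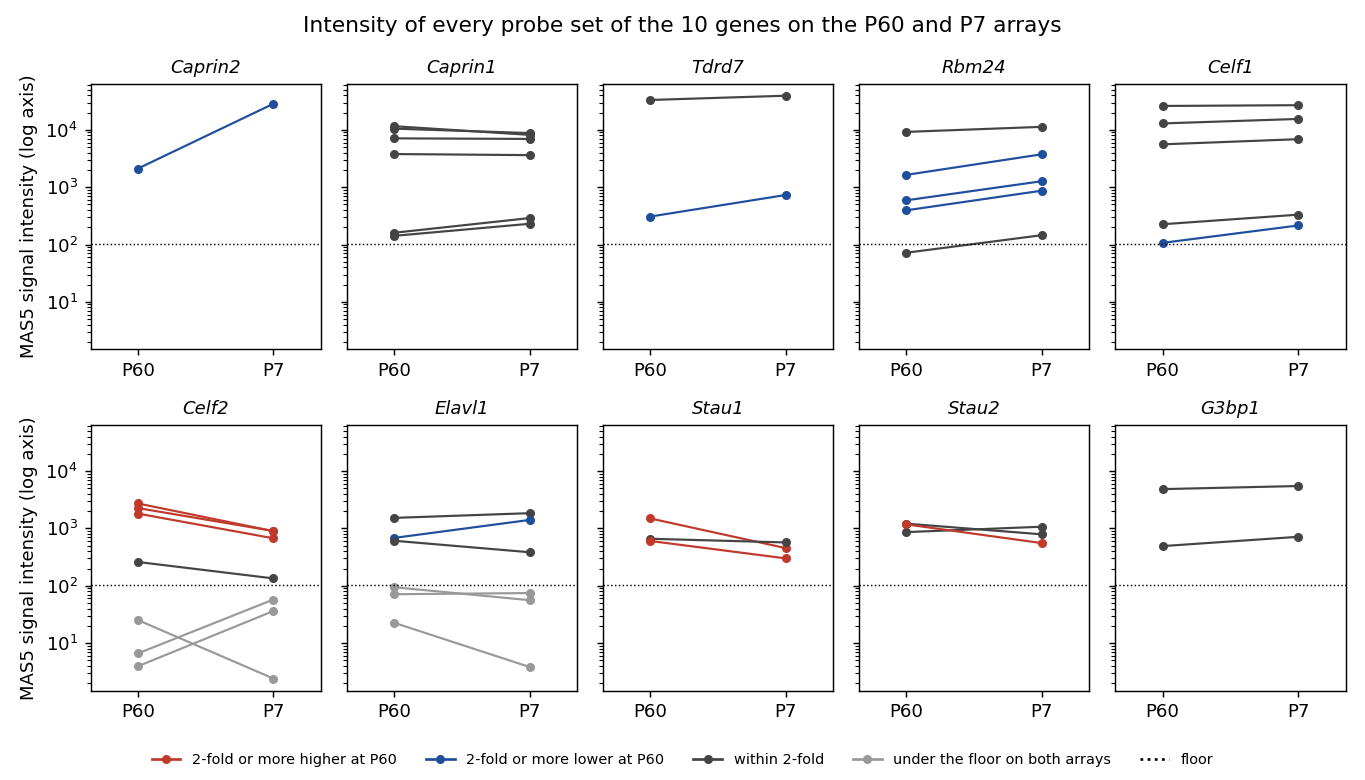
Signal intensity (log axis) of all 40 probe sets, 1 panel per gene and 1 line per probe set, with the P60 array left of the P7 array and the floor dotted. The single Caprin2 line stands at 2114 at P60 and 28567 at P7, whereas the 3 bright Celf2 lines are higher at P60.

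Among the 10 genes, taken by their brightest probe set, 2 were higher and 1 was lower at P60 by 2-fold or more. Over the whole array, 11.5% of 13029 measured genes were higher and 9.44% lower by this limit, and with 10 genes the counts are close to those shares. The median log2 ratio of the 10 genes was -0.11, against 0.02 over all measured genes. Over single probe sets, 6 of 34 were higher and 7 of 34 lower by 2-fold or more, against 9.89% and 10.6% of all 22462 measured probe sets. The 34 probe sets are not independent, since several read the same gene and some were designed on the same target sequence.

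The arrays had median intensities of 93.9 at P60 and 112.9 at P7, and 47.8% and 52.2% of probe sets lay above the floor. On their brightest probe sets, all 11 lens fibre marker genes with a probe set of their own were above the floor on both arrays. All 11 were within 2-fold there, among them Cryaa and Mip. Several of them, these 2 included, read above 32768, where ratios spread less. Of 87 probe sets with a mean intensity from 32768 to 65536, 4.60% passed 2-fold, against 21.3% of 3574 from 512 to 1024. Ratios near 0 on such bright probe sets do not show that the ages were equal. The 2 measured probe sets of the fibre marker Gja3 ran from -1.30 to -0.29. All 6 lens epithelial markers were also above the floor, with Cdh1 and Gja1 past 2-fold higher on their brightest probe sets and Foxe3 2.61-fold lower at P60. The 5 measured probe sets of Gja1 ran from -0.37 to 2.72. Vascular endothelial markers were lower at P60, with 6 of 6 measured genes past 2-fold and a summed intensity of 544 at P60 against 3281 at P7 over 7 genes. Of the erythroid list 2 genes were measured, Hba-a2 and Hbb-b2, and both were under the floor at P60. The ratio of 5′ to 3′ signal was lower at P60 for each of 6 control transcripts, for example 0.606 at P60 against 0.785 at P7 for beta-actin, and 0.0262 against 0.0995 for the dap spike-in. Probe sets of 1 gene can thus read differently on the 2 arrays according to where they lie in the transcript. These positions were not used here, and the part this has in the ratios below was not tested. In pooled tissue RNA, fewer cells of a type and less RNA per cell cannot be told apart.

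Caprin1 and Caprin2 are paralogues that bind mRNA, and Caprin1 is a partner of G3BP1 in stress granules. Caprin2 had an intensity of 2114 on the P60 array against 28567 on the P7 array, a log2 ratio of -3.76. The gene was thus bright at P7 and well above the floor at both ages. Only 32 of the 22462 measured probe sets, and 22 of the 13029 measured genes, had a ratio as low or lower, Caprin2 included. Among other probe sets with a mean intensity from 4096 to 8192, the range that holds Caprin2, the log2 ratios had an SD of 0.79 over 842 probe sets. Caprin2 rests on 1 probe set, 1427944_at, so it has no second reading on the array.

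The paralogue Caprin1 stayed within 2-fold. Its brightest probe set read 11576 at P60 against 8179 at P7, a log2 ratio of 0.50. Of its 6 probe sets 4 had ratios above 0, from 0.03 to 0.50, and these were the 4 brightest. The other 2, with 160 and 142 at P60 against 289 and 230 at P7, had ratios of -0.85 and -0.70. None of the 6 reached 2-fold in either direction, and 5 of the 6 were designed on the same target sequence. The ratio of Caprin2 lies below all 6 ratios of Caprin1. Within a gene, the SD of log2 ratios among probe sets was 0.58. It was pooled over the 4239 genes that had several probe sets exceeding the floor at both ages. This SD describes probe sets of the same gene and does not measure the spread between genes or between pools of lenses.

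**Figure D2:**
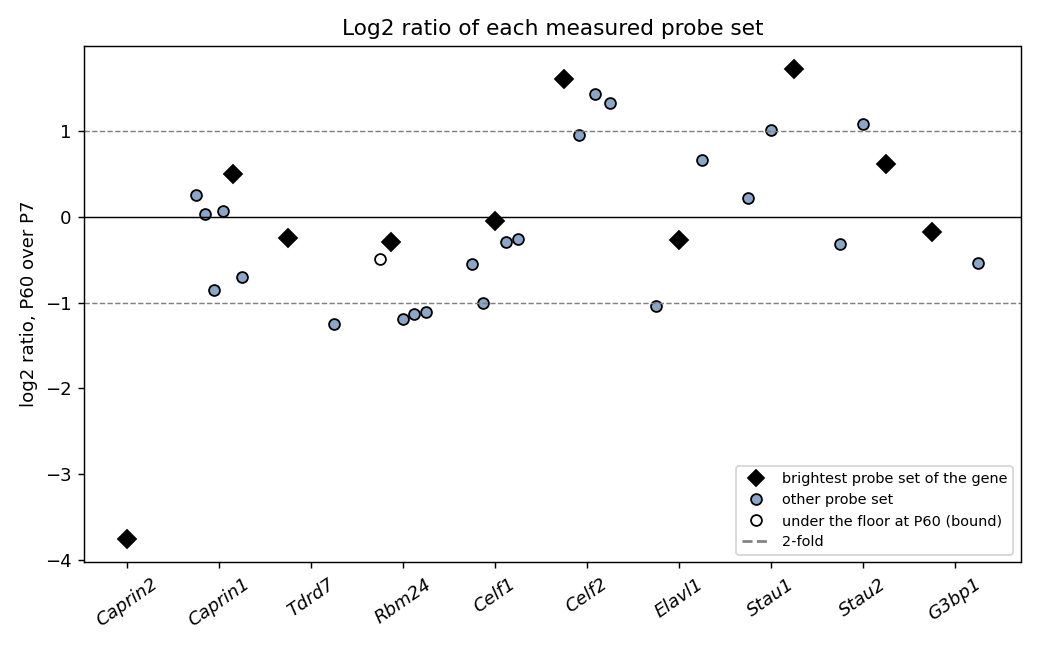
Log2 ratio (P60 over P7) of the 34 measured probe sets by gene, with the brightest probe set of each gene as a black diamond and 2-fold marked by dashed lines. Caprin2 stands at -3.76, all 4 Celf2 points lie above 0, and the points of Elavl1, Stau2 and Caprin1 fall on both sides of 0.

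The start regions of this pair are shown because its 2 members had such unlike ratios. The windows run from 250 bases before to 50 bases after the annotated start, 5′ to 3′ on the gene's strand, and come from RefSeq on GRCm38.p6. That of Caprin2 is chr6:148896188-148896487 and that of Caprin1 is chr2:103797029-103797328, both on the minus strand. Capitals mark matches, on either strand, to GGGCGG (the GC box) and CCGGAA (letters found in the binding motif of many ETS family factors). Neither window held the TATA box (TATAAA), the CCAAT box or the MAF core (TGCTGA, bound by MAF factors of the lens), which 13.6%, 37.4% and 19.5% of all windows held.
Caprin2: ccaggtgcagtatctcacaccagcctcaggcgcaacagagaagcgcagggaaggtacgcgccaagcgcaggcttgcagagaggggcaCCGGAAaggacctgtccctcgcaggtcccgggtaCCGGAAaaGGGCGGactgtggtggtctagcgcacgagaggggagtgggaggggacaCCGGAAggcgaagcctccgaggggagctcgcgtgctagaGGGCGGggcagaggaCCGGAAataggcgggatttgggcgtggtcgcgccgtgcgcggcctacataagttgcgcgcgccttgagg
Caprin1: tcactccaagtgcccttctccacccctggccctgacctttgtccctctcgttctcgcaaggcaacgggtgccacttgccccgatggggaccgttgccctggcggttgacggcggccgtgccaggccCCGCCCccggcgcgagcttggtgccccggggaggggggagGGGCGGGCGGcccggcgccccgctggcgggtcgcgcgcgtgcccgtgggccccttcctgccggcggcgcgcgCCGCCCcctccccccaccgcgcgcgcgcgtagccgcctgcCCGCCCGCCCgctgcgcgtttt

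CCGGAA occurs 4 times in the Caprin2 window, on the printed strand, beginning 163, 129, 73 and 19 bases before the start. It does not occur in the Caprin1 window. Of all 32851 mouse windows of the same length, 14.9% held CCGGAA on either strand at least once and 67 (0.204%) held it 4 times or more. CCGGAA was searched after the windows had been read. The GC box occurs 2 times in the Caprin2 window and 6 times in that of Caprin1, where some matches overlap, and 35.7% of all windows held it at least once. Both windows are rich in CpG, with 29 in Caprin2 and 43 in Caprin1 against a median of 7 over all windows. These matches describe the letters and do not show that a factor binds there.

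Tdrd7 encodes a Tudor domain protein of RNA granules. Its bright probe set read 33204 at P60 against 39406 at P7. Its dim probe set read 308 at P60 against 732 at P7 and was 2.38-fold lower. Both probe sets were therefore lower at P60, with ratios of -0.25 and -1.25. Ratios near the top of the scale spread less: over 87 other probe sets with a mean intensity from 32768 to 65536 the SD was 0.48, against 0.90 over 3574 probe sets from 512 to 1024. A ratio near 0 on so bright a probe set does not show that the ages were equal. The RefSeq table gives 3 start windows for Tdrd7, and 1 of them holds TATAAA 29 bases before the start, a sequence with the share given above.

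Rbm24 encodes an RNA recognition motif protein that acts in splicing and mRNA stability and is best known from muscle and heart. Its brightest probe set read 9216 at P60 against 11289 at P7, a log2 ratio of -0.29. The next, 1456180_at, read 1642 at P60 against 3753 at P7 and was 2.29-fold lower. The third read 591 at P60 against 1273 at P7 (2.15-fold lower), and the fourth 395 at P60 against 870 at P7 (2.20-fold lower). These 3 probe sets lay within 0.1 of each other on the log2 scale and each was designed on a target sequence of its own. The dimmest probe set was under the floor at P60 (72.0) and just above it at P7 (146), which makes it at least 1.40-fold lower. All 5 probe sets of Rbm24 were thus lower at P60, 3 of them past 2-fold, and whether the gene is called 2-fold lower depends on the probe set. The start window of Rbm24 held none of the motifs searched here. Skeletal muscle markers had a summed intensity of 858 at P60 against 669 at P7 over the brightest probe sets of 8 genes. Acta1, Tnnt3 and Myh4 were under the floor on both arrays, as was the brightest probe set of Ckm, whose other probe set was above it at P60 only, with a log2 ratio bound of 1.39. Actn3 was 2.05-fold higher, with 223 at P60 against 109 at P7. The part of muscle cells in the Rbm24 signal was not tested.

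Celf1 and Celf2 are paralogues of the CELF family, which bind GU-rich RNA and control splicing, translation and decay. Celf1 read 26115 at P60 against 26930 at P7 on its brightest probe set, a log2 ratio of -0.04. Its next probe sets read 12946 at P60 against 15497 at P7 and 5589 at P60 against 6873 at P7, with log2 ratios of -0.26 and -0.30. The remaining 2 were dim, at 226 and 107 at P60 against 332 and 215 at P7. All 5 ratios of Celf1 were below 0, from -1.01 to -0.04, and they ran downward in the order of brightness. Only the dimmest, close to the floor at P60, reached 2-fold. The first and the third share a target sequence.

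Celf2 was higher at P60. Its brightest probe set read 2725 at P60 against 896 at P7, a log2 ratio of 1.60. The next 2 read 2267 at P60 against 901 at P7 (1.33) and 1815 at P60 against 673 at P7 (1.43). A dimmer probe set read 260 at P60 against 134 at P7 (0.95). All 4 measured probe sets of Celf2 were thus higher at P60, with a range of 0.65, and 2 of them share a target sequence. The remaining 3 were under the floor on both arrays, with values from 3.95 to 25.2 at P60 and from 2.41 to 57.6 at P7. No fold is given for these. CELF2 is also abundant in neurons and leukocytes. Of 7 neuronal and retinal markers 4 were past 2-fold lower at P60, while 1, Gnat1, was higher. Of 8 leukocyte markers 4 were measured. The summed intensities over the brightest probe sets of all 8 were 1224 at P60 against 1020 at P7. Cd74 was 2.93-fold higher, Fcer1g at least 2.10-fold lower, and Ptprc was under the floor on both arrays. The part of these cells in the Celf2 signal was not tested.

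Elavl1 encodes HuR, which binds AU-rich sequences and stabilises many mRNAs. Its probe sets disagreed. The brightest read 1528 at P60 against 1847 at P7, a log2 ratio of -0.27. Probe set 1431037_a_at read 683 at P60 against 1408 at P7 and was 2.06-fold lower. Probe set 1452858_at read 610 at P60 against 385 at P7, a ratio of 0.67. The 3 measured readings therefore spanned 1.71 on the log2 scale, the widest range among the 10 genes, and gave Elavl1 no common direction. The other 3 probe sets of Elavl1 were under the floor on both arrays.

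Stau1 and Stau2 encode Staufen proteins, which bind double-stranded RNA and carry mRNA in transport granules. Stau1 had 3 probe sets, all higher at P60. The brightest read 1494 at P60 against 454 at P7, a log2 ratio of 1.72. Probe set 1435347_at read 605 at P60 against 300 at P7, a ratio of 1.01 that just reached 2-fold. Probe set 1422766_at read 661 at P60 against 570 at P7, a ratio of 0.21. The first and the last of these were designed on the same target sequence and still differed by 1.51 on the log2 scale. The Stau1 readings thus ran from 1.16-fold to 3.29-fold higher at P60.

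Stau2 read 1212 at P60 against 789 at P7 on its brightest probe set, a log2 ratio of 0.62. Probe set 1425534_at read 1176 at P60 against 555 at P7 and was 2.12-fold higher. Probe set 1425533_a_at, designed on the same target sequence, read 864 at P60 against 1072 at P7, a ratio of -0.31. The 3 probe sets of Stau2 fell on both sides of 0.

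G3bp1 encodes a protein that nucleates stress granules together with Caprin1. It read 4850 at P60 against 5494 at P7 on its brighter probe set and 492 at P60 against 715 at P7 on the other. Both ratios, -0.18 and -0.54, were below 0 and within 2-fold. They differed by 0.36, the narrowest range among the 9 genes with more than 1 probe set.

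Probe sets of 1 gene often differ on these arrays. Of the 4239 genes with several probe sets exceeding the floor at both ages, 29.9% had probe sets at least 2-fold apart. For genes with exactly 3 such probe sets the median range was 0.86, and for those with 5 or more it was 1.39. Stau1, Stau2 and Elavl1, with 3 each and ranges of 1.51, 1.40 and 1.71, lay above the first of these medians, and Celf1, with 5 and a range of 0.96, below the second. In 8 of the 9 genes described here that have several such probe sets, the brightest had a higher log2 ratio than the mean of the others, with Elavl1 as the exception. The same held for 59.4% of the 4239 genes. The median of that difference was 0.49 in the 9 genes and 0.16 over all 4239.

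**Figure D3:**
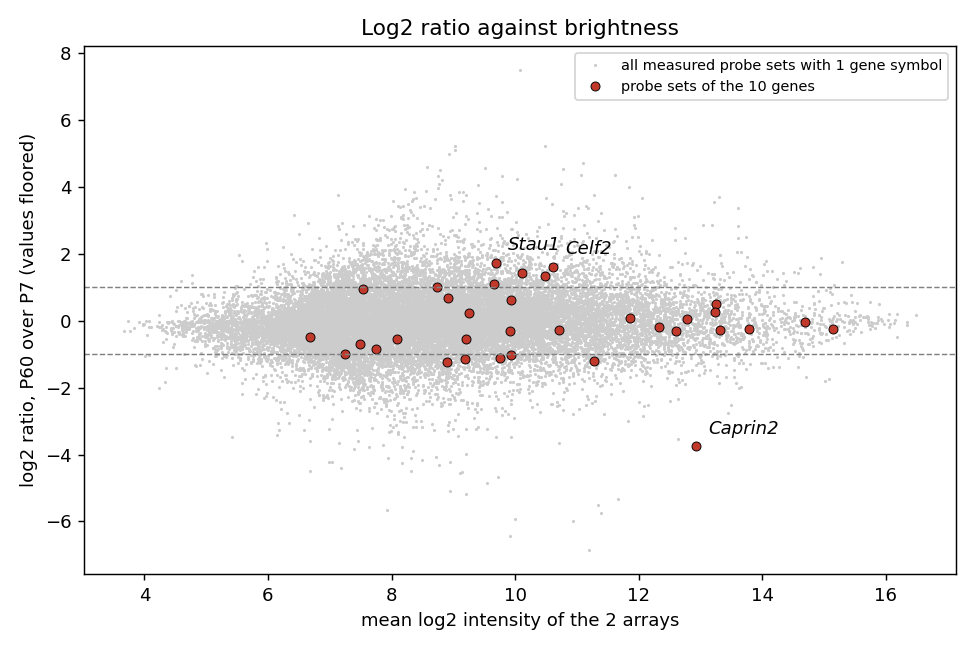
Log2 ratio (P60 over P7, values floored) against mean log2 intensity, with all measured probe sets that have 1 gene symbol in grey and the 34 measured probe sets of the 10 genes in red. Caprin2, at -3.76, lies at the lower edge of the grey cloud, and the other 33 lie between -1.25 and 1.72.

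Genes of related RNA-binding groups were read against the whole array, where 79.1% of the 13029 measured genes were within 2-fold. Of 20 other stress granule genes 18 had a named probe set, all measured, and 16 were within 2-fold. The median log2 ratio was -0.13. Fxr2, a relative of the fragile X protein, was 2.28-fold higher at P60 (1260 against 553 at P7). Tardbp, which encodes TDP-43, was 2.10-fold lower (1078 against 2265), with its 5 probe sets from -1.07 to 0.22. Those next to them were Ybx3 with a ratio of 0.38, and -0.22 on its other probe set, and Tia1 with -0.72. The 5 measured probe sets of Tia1 ran from -1.35 to 0.91. The G3BP1 relative G3bp2 had a ratio of -0.19 and Usp10, which encodes a G3BP-binding ubiquitin protease, -0.40.

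Of 21 genes of processing bodies and mRNA decay 20 were measured, and 18 were within 2-fold, with a median of 0.10. Tnrc6b, a scaffold of microRNA silencing, was 3.77-fold lower at P60, with 3214 at P60 against 12106 at P7. Its 3 probe sets agreed in direction, from -2.52 to -1.41. Lsm1, a subunit of the ring that promotes decapping, was 2.57-fold lower on the 1 of its 2 probe sets that was measured. At the upper end were Dcp2, the decapping enzyme, with 0.66 and Lsm14b with 0.54. The relatives of Tnrc6b were close to 0 on their brightest probe sets, with Tnrc6a at -0.10 and Tnrc6c at 0.28. The 7 measured probe sets of Tnrc6a ran from -0.60 to 0.27, and the 2 of Tnrc6c from -0.09 to 0.28.

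Of 19 genes of transport granules and localised translation 17 were measured, and 16 were within 2-fold, with a median of 0.20. Khdrbs3, a STAR family splicing factor, was 2.33-fold lower on a dim probe set (151 at P60 against 351 at P7), and Nova1, a neuronal splicing factor, had a ratio of -0.70. Upf1, the helicase of nonsense-mediated decay and a partner of Staufen, had a ratio of 0.92 and Msi2 of 0.69. The 7 measured probe sets of Msi2 ran from -0.70 to 0.69. Of 11 named Tudor domain genes 7 were measured and none of them reached 2-fold, with a median of -0.15. Tdrd3 had the highest ratio, 0.77, then Tdrkh with -0.01, and Snd1 had the lowest, -0.63, then Tdrd12 with -0.48 as a bound. The 3 probe sets of Tdrd3 ran from -0.17 to 0.77. Tdrd1, Tdrd5, Tdrd9 and Stk31, known from germ cells, were under the floor on both arrays, as were the germ cell granule genes Ddx4, Dazl, Mael and Piwil2.

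Of 17 splicing regulators related to Celf1, Celf2 and Rbm24, 16 were measured. Among these 1 was at least 2-fold higher and 2 were lower, with a median of -0.16. Rbm20, a splicing factor of striated muscle, was 2.95-fold higher at P60 (747 against 253 at P7) on its single probe set. Rbfox3, the neuronal marker NeuN, was 4.94-fold lower (233 against 1151), with its other measured probe set at -0.32. Mbnl3 was at least 2.33-fold lower, being under the floor at P60. Rbfox2 had a ratio of 0.91, and its 3 measured probe sets ran from -0.65 to 0.91. Rbm38, the closest relative of Rbm24, had a ratio of -0.88 (1230 at P60 against 2271 at P7). The other CELF genes were dim, and Celf3 had a ratio of -0.90. Celf4 had -0.95 on its brightest probe set, and its 3 probe sets ran from -1.38 to -0.95. Celf5 and Celf6 were under the floor at P60 and just above it at P7.

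Of 12 measured genes for proteins that bind AU-rich or C-rich elements 2 were at least 2-fold lower and none higher, with a median of -0.07. Zfp36l1, which promotes decay of mRNA with AU-rich elements, was 5.21-fold lower at P60 (228 against 1189 at P7), and its other probe set had a ratio of -1.13. Elavl4, a neuronal relative of Elavl1, was at least 3.99-fold lower on its brightest probe set. The ratios of its 3 measured probe sets, bounds included, ran from -2.00 to -0.57. Elavl3 was close to the floor with 108 at P60 against 123 at P7, and the brightest probe set of Elavl2 was under it on both arrays. Elavl2 is therefore not among the 12, though 3 of its 5 probe sets were measured, with ratios from -0.41 to -0.002. Pcbp2 was at the upper end with 0.76, its 3 probe sets from 0.63 to 0.86, and Hnrnpd had 0.53. Of 7 neuronal and retinal markers, a list that holds Rbfox3 itself, 4 were past 2-fold lower at P60 and 1 was higher. Snap25 was under the floor at P60 with 7.17 against 517 at P7, and Tubb3 was lower with a bound of -0.25. Gnat1 was at least 7.59-fold higher. The part of such cells in the values of Elavl4 and Rbfox3 was not tested.

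**Figure D4:**
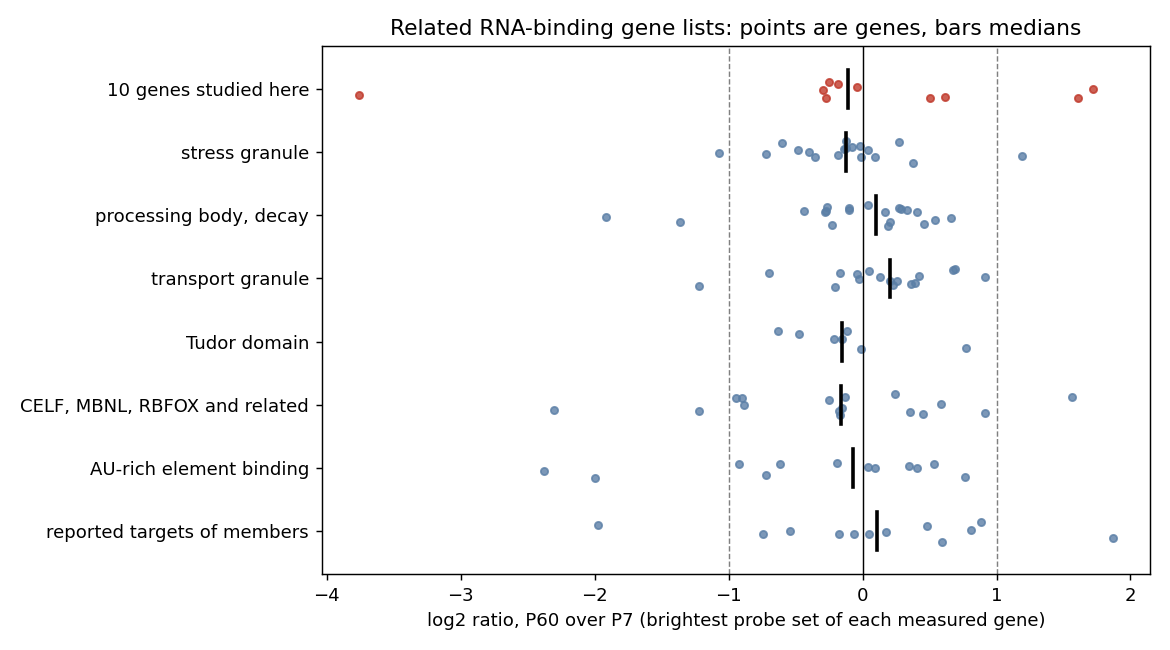
Log2 ratio (P60 over P7) of each measured gene on its brightest probe set, for the 10 genes (top, red) and 7 related gene lists (blue), with medians as black bars and 2-fold as dashed lines. The medians of the lists lie between -0.16 and 0.20, and most points are inside 2-fold, as are 79.1% of all measured genes.

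A further 12 transcripts were looked at because studies of lens or eye have linked several of them to CELF1, RBM24 or TDRD7. Of these 10 of 12 were within 2-fold, with a median of 0.11, which is close to the share of 79.1% over all measured genes. Sox2, a transcription factor whose mRNA is bound by RBM24, was 3.65-fold higher at P60 (4154 against 1138 at P7). Cdkn1c, an inhibitor of cell cycle kinases, was 3.92-fold lower (6491 against 25468). Dnase2b, the nuclease that degrades fibre cell DNA and a target of CELF1, read 10203 at P60 against 9017 at P7. Cdkn1b, another CELF1 target, had a ratio of 0.81 on the brighter and -0.69 on the dimmer of its probe sets. Lrp6, a Wnt co-receptor that binds CAPRIN2, had a ratio of 0.88, with its other probe set at -0.01. Hspb1, which is reduced in Tdrd7 mutant lenses, had a ratio of 0.48, and Ell2 had -0.74. A relation between the level of an RNA-binding protein and these transcripts cannot be tested with 2 arrays.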

How the data were processed

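Total RNA of 1 pool of lenses per age was labelled with biotin and hybridised to 1 array. The authors deposited 1 linear signal intensity per probe set and array, made with MAS5 per the submitters' processing notes. The software version and scaling settings are not stated in the sources used. After trimming 2% of values at each end, the mean intensity was 500.0 on both arrays. A platform annotation named 34958 probe sets with 1 gene symbol, 932 with several and 9211 with none. Of the first, 34754 were matched by gene number to the current symbol. Intensities below the floor (103.9) were set to it and log2 ratios computed. A gene was represented by its brightest probe set, by mean log2 intensity over both arrays. All probe sets of the 10 genes are given. In each related list, genes past 2-fold and the 2 highest and 2 lowest were to be named, and others named beside them were chosen after their values were seen. Genes, lists and rules were chosen with earlier results of these data known. No test was possible, and the number of arrays limits the precision. The calculation was tested on simulated data. Python 3.11.15, numpy 2.4.6 and pandas 2.3.3 were used. Start windows were found for 9 of the 10 genes, and Stau2 had none.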

Additional observations from a re-analysis of the deposited data

How the results depend on the processing

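The gene results were recomputed under 10 alternatives, and the probe set counts under the 7 of them that do not change the choice of probe set. Among these 7 were 2 other floors, pseudocounts of 32 and 1 in place of the floor, and 2 other scalings. The last of the 7 was a filter for values above the floor on both arrays. The remaining 3 alternatives were other choices of the probe set for a gene. The number of genes at least 2-fold lower was 3 in place of 1 with the dimmest measured probe set (Caprin2, Tdrd7 and Celf1) and 2 with the median over probe sets (Caprin2 and Rbm24). The number at least 2-fold higher was 2 under every alternative, but with the dimmest probe set the genes were Stau1 and Stau2. The number of probe sets at least 2-fold lower was between 6 and 9, and of those higher between 5 and 8. Caprin2 ran from -3.81 to -3.74 over the alternatives. Since it has 1 probe set, far above each floor, only the pseudocounts and the 2 scalings could change its ratio. Of 100 recomputed log2 ratios of single genes 92 moved by less than 0.58, and all 8 others came from the choice of probe set, for example Elavl1 at 0.67 and Celf2 at 0.95 with the dimmest. The 2 other floors and the filter left every ratio as it was, since each brightest probe set lay above all floors at both ages. So did 1 of the 3 choices of probe set, which kept the brightest of each gene. Pseudocounts act little at such intensities. The count of 92 was thus in part fixed by the alternatives taken. With a pseudocount of 1 in place of the floor, which also counts all 18194 genes, 2761 were higher and 3627 lower, against 1494 and 1230 with the floor. That is 43.2% higher among those past 2-fold, against 54.8% with the floor. With the dimmest probe sets it was 46.8% and with a pseudocount of 32 it was 44.8%. No paired analysis was possible because each age has 1 array. Replicates could not be left out for the same reason.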
